A study of Mus musculus with 4 samples.

Results

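Neutrophils carrying Retnlg transcripts were examined in single-cell RNA libraries of mouse 4T1 tumours. 4T1 is a mammary carcinoma line that grows in BALB/c mice. Retnlg encodes resistin-like gamma, a small secreted protein of the resistin family that is made in bone marrow and blood neutrophils of mice. The cells were chosen by transcript counts alone. A barcode was kept when it held at least 300 genes and at most 15% mitochondrial molecules (unique molecular identifiers, UMIs). It passed the neutrophil gate when S100a8 and S100a9 together made up at least 1% of its UMIs, when it held at least 1 UMI of Csf3r and when it held none of Ly6c2, a monocyte gene. A gated cell with at least 1 UMI of Retnlg was a member. There were 2034 members among 5390 gated cells and 32133 kept cells, drawn from 33064 barcodes with 355765099 UMIs.

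The mice were female BALB/c animals of 6–8 weeks with a 4T1 tumour in the right flank. PBS or TIOs, the T cell inspired oncolytic nanosystem of the study, was injected on day 7. By the study's account of its tumour-infiltrating lymphocytes, each treatment was followed by near-infrared light (power 1.0 W cm-2, wavelength 980 nm). It was given for 5 min at a time on each of days 8, 9 and 10, and tumours were taken on day 13. CD45 cells were sorted for the libraries, and the study's single-cell section does not repeat the light settings or the day. Of the 4 samples, the labels placed 2 under PBS and 1 under TIOs with light. The label and the protocol of the remaining sample disagreed. The 4 barcode suffixes of the matrix are called libraries 1 to 4 here. No label tied a suffix to a sample, so no library has a known treatment, treated and untreated tumours could not be compared, and all intervals given below cover counting error only.

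Neutrophils mature in the bone marrow through a fixed order of granule programmes. Azurophil granule enzymes come first, specific granule proteins such as lactoferrin and cathelicidin follow, and gelatinase granule proteins such as Mmp9 come late. Retnlg belongs to the late part of that order, and neutrophils that have stayed in inflamed or tumour tissue typically carry cytokine, interferon and NF-kB transcripts instead.

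Library 1 stood apart from the others. It held 457 gated cells among 7847 kept cells, whereas libraries 2, 3 and 4 held 1995 of 8614, 1671 of 6783 and 1267 of 8889. It also held 4676 cells outside the gate that had at least 1000 UMIs and an Epcam transcript, an epithelial gene, although the cells had been sorted for CD45. Values of library 1 are therefore given beside those of libraries 2 to 4. Among all barcodes, 101 barcode sequences occurred in more than 1 library. Only 6 members carried such a sequence, and none of these sequences marked a member in both libraries of a pair.

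The sequences before the annotated starts of 3 genes introduce the comparison, because Retnlg defined the cells, Mmp8 had higher levels and Isg15 lower levels in them in every library. Each is the run of 250 bases before the RefSeq start, written 5′ to 3′ on the gene's strand (build GRCm38). Capitals mark matches to TTGCNNAA, a core of sites bound by C/EBP factors, in the first pair. In Isg15 they mark matches to GAAA, 2 bases of any kind and GAAA again, the core of the interferon-stimulated response element. Both strands were searched.
Retnlg (chr16:48872358-48872607, plus strand): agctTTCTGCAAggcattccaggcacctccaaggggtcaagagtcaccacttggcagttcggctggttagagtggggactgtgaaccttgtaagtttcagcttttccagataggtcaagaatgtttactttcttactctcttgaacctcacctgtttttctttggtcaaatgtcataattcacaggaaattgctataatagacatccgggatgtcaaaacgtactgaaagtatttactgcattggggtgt
Mmp8 (chr9:7558179-7558428, plus strand): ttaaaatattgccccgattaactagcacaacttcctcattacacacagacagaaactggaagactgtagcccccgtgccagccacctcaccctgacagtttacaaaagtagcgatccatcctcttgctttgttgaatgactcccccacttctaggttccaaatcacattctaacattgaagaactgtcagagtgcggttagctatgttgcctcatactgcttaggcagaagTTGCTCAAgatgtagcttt
Isg15 (chr4:156200819-156201068, minus strand): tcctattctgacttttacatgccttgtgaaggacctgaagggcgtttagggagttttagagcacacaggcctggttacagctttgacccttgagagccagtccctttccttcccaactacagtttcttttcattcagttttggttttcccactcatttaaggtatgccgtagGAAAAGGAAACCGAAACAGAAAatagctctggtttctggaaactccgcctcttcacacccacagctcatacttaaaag

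The Retnlg gene itself lies on chromosome 16 (chr16:48872621-48874496, plus strand). Its window held 1 match, 246 bases before the start, and the Mmp8 window held 1 match, 19 bases before the start. The Isg15 window held 3 overlapping matches whose first bases lay 78 to 66 bases before the start. TTGCNNAA occurred in 9.56% of all 32851 windows of this length and the interferon core in 2.98%. Matches are letters in a window and not measured binding.

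Retnlg was detected in a different share of the gated cells of each library. Members made up 58.2% of gated cells in library 1 (exact Clopper-Pearson 95% interval 53.5% to 62.8%), 27.5% in library 2 (25.6% to 29.5%), 40.8% in library 3 (38.4% to 43.2%) and 42.5% in library 4 (39.7% to 45.2%). The intervals of libraries 1 and 2 were separate from each other and from those of libraries 3 and 4, which overlapped. Of all kept cells, members made up 3.39%, 6.37%, 10.0% and 6.05% in libraries 1 to 4.

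**Figure D1:**
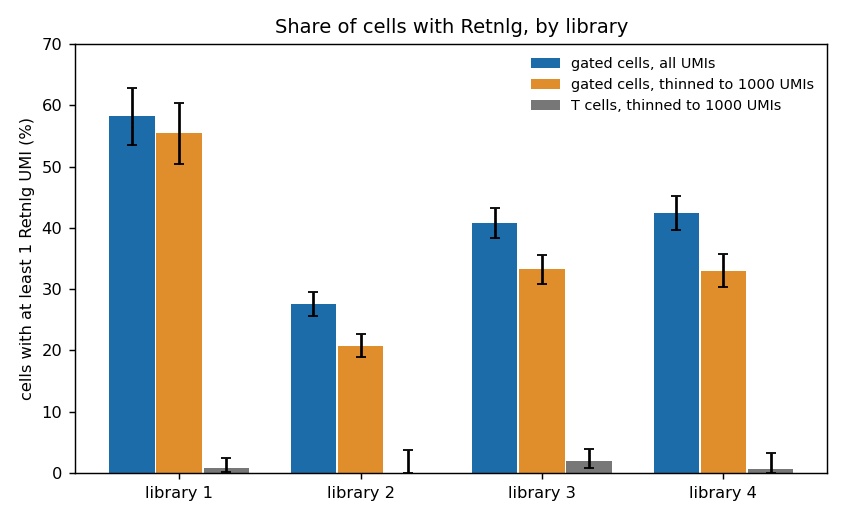
Share of cells with at least 1 Retnlg UMI (vertical axis, percent) in each library, for gated cells with all their UMIs, gated cells thinned to 1000 UMIs and T cells thinned to 1000 UMIs; bars are shares and lines are exact 95% binomial intervals. Library 1 is highest and library 2 lowest at either depth, and the T cell bars lie below 2%.

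A detection share moves with depth. Members had a median of 2023.5, 1992, 2104 and 1814.5 UMIs and the Retnlg-negative cells of the same gate 1506, 1795.5, 1856.5 and 1688. The 5159 gated cells with at least 1000 UMIs were therefore thinned to exactly 1000, which left out 47 members and 184 negative cells. The share with Retnlg was then 55.5%, 20.8%, 33.2% and 33.0% in libraries 1 to 4. T cells (Cd3e and Cd3d detected, outside the gate), which should lack the gene, gave 0.850%, 0%, 1.92% and 0.592% at the same depth, where 0 of 97 cells in library 2 allows a share of up to 3.09%. These T cells had a pooled median of 4998 UMIs before thinning and the gated cells 1874. Library 1 was highest and library 2 lowest at both depths, while libraries 3 and 4 changed places within their intervals. Each gated share lay far above the T cell share of its library.

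The amount of Retnlg per member also varied between libraries. Summed over members, it reached 7077 counts per 1000000 UMIs (CPM) in library 1, 1915 in library 2, 3440.3 in library 3 and 3367 in library 4. The median member held 6, 2, 3 and 3 Retnlg UMIs and the highest 285, 187, 243 and 123. Members with exactly 1 UMI numbered 47 of 266, 200 of 549, 207 of 681 and 182 of 538, so the members of library 2 were more often at the threshold than those of library 1. Few cells with Retnlg lay close to the S100 threshold. Only 59 members had S100a8 and S100a9 between 1% and 1.5% of UMIs, and 65 cells with Retnlg just missed the gate at 0.5% to 1%. The median share of these S100 transcripts was 12.3%, 9.99%, 9.09% and 11.5% of UMIs in members. In negative cells it was 4.50%, 6.41%, 5.99% and 7.81%.

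The gate held 60.7% of the 31645 Retnlg UMIs in the matrix. A further 2933 kept cells outside the gate carried Retnlg. Of these, 1812 had too little S100a8 and S100a9, 676 lacked Csf3r and 445 had a Ly6c2 UMI. The other resistin genes were nearly silent in members. Retn, which encodes resistin, was at 10.4, 21.5, 18.7 and 17.5 CPM in members of libraries 1 to 4. Retnla, the neighbour of Retnlg on chromosome 16 (chr16:48842551-48844461), was at 0, 0.632, 0 and 0.923 CPM.

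Some neutrophil markers that the gate had not used were well detected in members, and others were low. Cxcr2, the receptor for neutrophil-attracting chemokines, was at 238, 444, 469 and 1036 CPM in members of libraries 1 to 4 and at 265, 522, 459 and 1057 CPM in negative cells. Mmp9, the gelatinase, was at 265, 612, 1005 and 1008 CPM in members and at 276, 695, 986 and 1076 CPM in negative cells. The widest difference of the 2 genes was a log2 fold of -0.23, for Cxcr2 in library 2. Ly6g, the usual surface marker of mouse neutrophils, was low, at 96.4, 24.0, 31.0 and 41.5 CPM in members. In negative cells it was at 8.54, 19.1, 23.9 and 40.2 CPM, so the widest gap was in library 1. Cd177, a further listed neutrophil marker, was low as well, at 108, 18.3, 13.9 and 19.4 CPM in members. It was found in 39 of 266, 19 of 549, 22 of 681 and 17 of 538 members. Among the most abundant transcripts of members were Fth1 (ferritin heavy chain), Cxcl2 (a neutrophil-attracting chemokine), Srgn (serglycin, a granule proteoglycan) and Il1b. Cxcl2 was at 11280.0, 36744, 48303 and 45666 CPM in libraries 1 to 4.

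Members and negative cells were then compared inside each library on UMIs summed over cells, as the log2 ratio of CPM plus 10 CPM, which understates changes of low genes. Of 4515 genes with a mean of at least 20 CPM, excluding the gate genes, 0 (0%) were at least 2-fold higher and 0 (0%) at least 2-fold lower in every library. The differences described below are therefore smaller than 2-fold in at least 1 library. In library 1 alone, 117 genes (2.59%) were 2-fold higher and 211 (4.67%) 2-fold lower. The corresponding counts were 13 (0.288%) and 1 (0.0221%) in library 2, 6 (0.133%) and 5 (0.111%) in library 3, and 3 (0.0664%) and 15 (0.332%) in library 4. Library 1 had the fewest UMIs, with 861437 in members and 351470 in negative cells. Negative cells of libraries 2, 3 and 4 had 3306138, 2255858 and 1392638. Counting noise passes 2-fold more easily in library 1, and the filter on the mean admits genes high there only. These counts therefore cannot decide whether library 1 differed more. Differences of any size with the same direction in every library were found for 190 genes higher (4.21%) and 789 lower (17.5%). Over libraries 2 to 4 alone there were 311 (6.89%) and 1129 (25.0%).

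The balance of higher and lower genes differed between scales. S100a8, S100a9 and Retnlg, which the gate and the split select, took 12.1%, 9.28%, 9.38% and 12.3% of UMIs in members and 5.18%, 7.21%, 6.61% and 8.48% in negative cells. The median log2 fold of all tested genes was -0.10, -0.00, -0.08 and -0.11 in libraries 1 to 4. When those 3 genes were left out of the total, lower genes still outnumbered higher ones. Then 294 genes (6.51%) were higher and 529 (11.7%) lower in every library, and with the median fold of each library set to 0 there were 405 (8.97%) and 395 (8.75%). Higher genes made up 19.4%, 35.7% and 50.6% of those with 1 direction on the 3 scales, and the last of these is set close to an even split by the centring itself. No gene passed the 2-fold rule in all libraries, so the genes named below were chosen after their values were seen, as the 12 in each direction with the largest smallest fold and as members of the gene lists.

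Mmp8, Mgst1 and Ccl6 were higher in members of every library. Mmp8, the neutrophil collagenase of the granules (chr9:7558456-7568485), was at 234, 105, 304 and 228 CPM in members of libraries 1 to 4. In negative cells it was at 68.3, 71.4, 166 and 133 CPM. Members were higher in every library, by ratios of 3.43 (exact 95% interval 2.24 to 5.48), 1.47 (1.20 to 1.80), 1.83 (1.60 to 2.09) and 1.72 (1.41 to 2.09). Mgst1, a membrane-bound glutathione transferase, was at 179, 232, 299 and 278 CPM in members and at 56.9, 163, 171 and 148 CPM in negative cells. Its ratios were 3.14, 1.42, 1.75 and 1.88. Ccl6, a chemokine of myeloid cells, was at 463, 1059, 914 and 1165 CPM in members and at 282, 802, 665 and 735 CPM in negative cells. No interval of the ratio of these 3 genes reached 1 in any library.

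**Figure D2:**
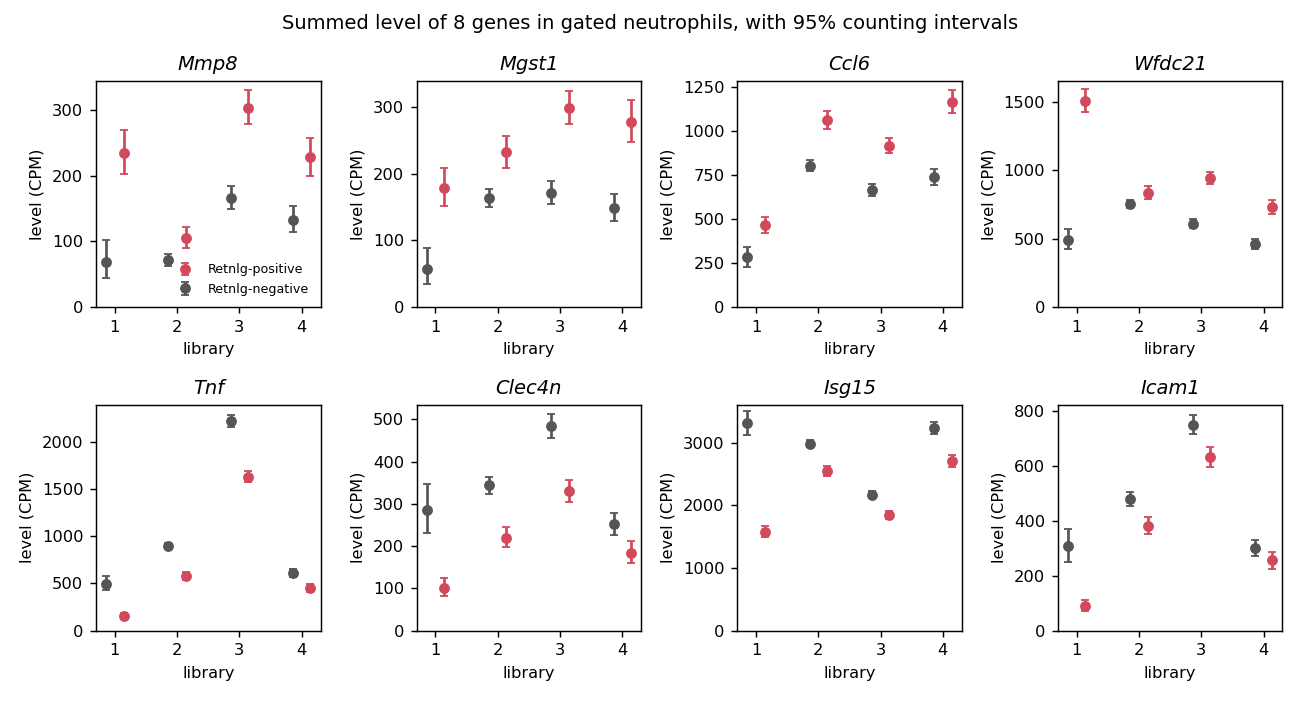
Level of 8 genes (vertical axes, CPM of UMIs summed over cells) in Retnlg-positive and Retnlg-negative neutrophils of each library; points are sums over cells and lines exact 95% Poisson intervals. Mmp8, Mgst1, Ccl6 and Wfdc21 are higher and Tnf, Clec4n, Isg15 and Icam1 lower in Retnlg-positive cells of all 4 libraries.

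Of the gelatinase granule and late maturation list, 4 of 15 tested members were higher in every library and none lower, beside 4.21% and 17.5% of all tested genes, and 11 had no common direction. Without library 3, 8 of 16 were higher and 1 lower, beside 9.20% and 24.3%. The 4 in every library were Mmp8, Wfdc21, Anxa1 (annexin A1) and Ifitm6. The list joins gelatinase granule and late maturation genes, so a member need not encode a gelatinase granule protein. Wfdc21, a small whey acidic protein of neutrophils, was at 1508, 835, 942 and 730.2 CPM in members and at 492, 752, 610.0 and 458 CPM in negative cells. Anxa1 was at 1006, 285, 247 and 439 CPM in members and at 299, 207, 208 and 323 CPM in negative cells. Ifitm6 differed mainly in library 1, with log2 folds of 3.73, 0.20, 0.19 and 0.30, and its ratio in library 2 had an interval of 0.99 to 1.36. The list's median log2 fold was 0.25, 0.10, 0.19 and 0.27, beside -0.10, -0.00, -0.08 and -0.11 for all tested genes.

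The stefin A cluster, a family of cysteine protease inhibitors on chromosome 16, had 3 of 6 tested members higher in every library (Stfa2, Stfa2l1 and BC117090) and none lower, beside 4.21% and 17.5% of all tested genes. The list's median log2 fold was 0.34, -0.00, 0.51 and 0.52, and in library 2 its summed level was lower in members, at 9063 CPM against 9324 CPM. Without library 2, 5 of 6 were higher, beside 6.56%. Stfa2 was at 1147, 848, 1828 and 1277 CPM in members and at 982, 778, 1151 and 784 CPM in negative cells. Stfa3 was higher in libraries 1, 3 and 4 only, with log2 folds of 0.69, -0.03, 0.91 and 1.37. These genes are near-identical copies, and counts could have been divided among them. Low levels were found among the other genes of the 12 highest by smallest fold. Rasgrp2, an activator of the small GTPase Rap1, was at 31.3, 31.6, 22.4 and 53.5 CPM against 17.1, 18.1, 13.3 and 29.4. Nfe2, a transcription factor best known from platelets and red cells, was at 24.4, 19.0, 17.1 and 47.1 CPM against 5.69, 10.6, 11.97 and 34.5. Their intervals reached 1 in library 1 for Rasgrp2 and in libraries 3 and 4 for Nfe2. The remaining genes of the 12 were Scd2, Abtb1, Vrk1, Timp2, Chrac1, Usp22 and Dctn1.

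Tnf, Clec4n and Csf1 were lower in members of every library. Tnf, the gene of tumour necrosis factor (chr17:35199381-35202007), was at 154, 578, 1626 and 449.6 CPM in members of libraries 1 to 4. In negative cells it was at 498, 897, 2219.6 and 611 CPM. Members were lower in every library, with ratios of 0.31 (0.25 to 0.39), 0.64 (0.60 to 0.69), 0.73 (0.70 to 0.77) and 0.74 (0.66 to 0.82). Clec4n, the pattern receptor Dectin-2, was at 102, 220.1, 330.2 and 184 CPM in members and at 285, 344, 483 and 251 CPM in negative cells. Csf1, the macrophage growth factor, was at 173, 314, 770.0 and 383 CPM in members and at 475, 472, 867 and 575 CPM in negative cells. All intervals of these ratios lay below 1. The most abundant cytokines had no common direction. Il1b had log2 folds of -0.80, -0.22, 0.01 and 0.11, and Cxcl2 of -1.11, -0.22, 0.04 and 0.04. Of the chemokine and cytokine list, 2 of 18 tested genes were higher in every library (Ccl6 and Ccl9) and 6 lower, beside 4.21% and 17.5% of all tested genes.

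The other genes among the 12 lowest by largest fold were 1110002J07Rik, Gm43814, Gm43936, Ptgs1, Usp2, Scimp, Igfbp6, Gpr146, Tgfbr1 and Icosl. Igfbp6, which binds insulin-like growth factors, was at 440.0, 229, 165 and 121 CPM in members and at 663, 298, 227 and 256 CPM in negative cells. Ptgs1, a cyclooxygenase, was low, with ratios of 0.384, 0.621, 0.642 and 0.643, and their intervals reached 1 in libraries 2 and 4.

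Interferon-stimulated genes were lower in members more often than tested genes in general. Of 21 listed genes, 14 were lower in every library and none higher, beside 17.5% and 4.21% of all tested genes. The list's median log2 fold was -0.71, -0.33, -0.17 and -0.21. Isg15, a ubiquitin-like protein induced by interferon, was at 1581, 2556, 1847 and 2709 CPM in members and at 3312, 2989, 2175 and 3238 CPM in negative cells. Ifit1, which binds foreign RNA, was at 88.2, 318, 770.0 and 703 CPM against 151, 517, 860.4 and 960.0. Cxcl10, a chemokine for T cells, had log2 folds of -1.12, -0.72, -0.14 and -0.88. Ifitm1 and Ifitm3, which are expressed by neutrophils without interferon as well, did not share the direction and were higher in library 1 by 0.51 and 0.52 on the log2 scale. The interferon core was found upstream of 10 of the 19 listed genes that had a window, beside 2.98% of all windows. A gene counted when any of its windows held the core, so these shares differ in unit. The share over all genes was not computed.

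**Figure D3:**
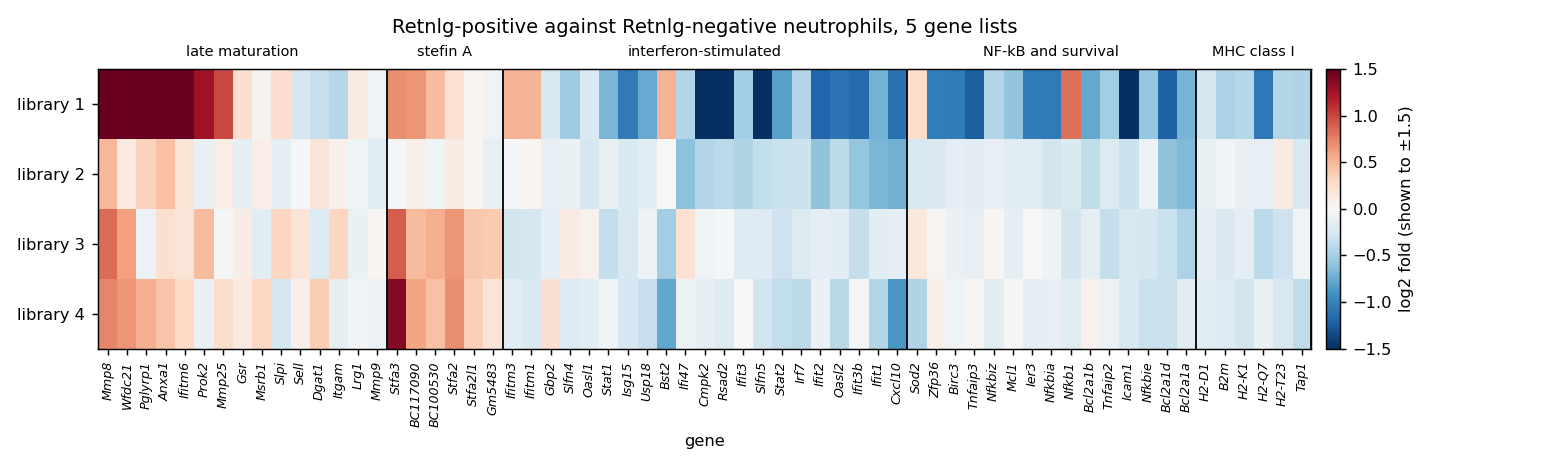
Log2 fold of Retnlg-positive over Retnlg-negative neutrophils (colour, shown to ±1.5) for the tested genes of 5 lists (columns) in each library (rows), ordered within a list by median fold. Red columns are on the left of the late maturation and stefin A lists, most columns of the other 3 lists are blue, and the colours are deepest in library 1.

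The size of that group depended on the cells and the scale used. With the S100a8, S100a9 and Retnlg UMIs left out of the total, 11 of the 21 genes were lower in every library, beside 11.7% of all tested genes, and with the median fold set to 0 there were 8, beside 8.75% of all tested genes. When cells were thinned to 1000 UMIs before they were gated, 7 of 21 were lower, beside 18.5% of tested genes. When cells with a UMI of C1qa, C1qb, Cd3e, Epcam or Col1a1 were left out, 10 of 21 were lower, beside 22.6%. Without library 1 there were 16 of 21 in the remaining libraries, beside 25.0%. None of the 21 was higher in every library in any of these settings.

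Of 6 class I histocompatibility and presentation genes, 5 were lower in members of every library and none higher, beside 17.5% and 4.21% of all tested genes. The count was 3 of 6 with no condition on Csf3r, beside 17.5%, and 3 of 6 when cells were thinned to 1000 UMIs before the gate, beside 18.5%. H2-K1 was at 1125, 827, 969.9 and 991 CPM in members and at 1522, 898, 1075 and 1214 CPM in negative cells, and H2-D1 had log2 folds of -0.26, -0.11, -0.15 and -0.16. Of 15 genes of NF-kB response and survival, 7 were lower in every library and none higher, beside the same 17.5% and 4.21%. In library 1, 7 of the 15 were at least 2-fold lower, beside 4.67% of all tested genes, and in libraries 2 to 4 none was. The count lower in every library was 12 of 15 with no condition on Ly6c2 or with the highest doublet scores removed, beside 16.9% and 24.3%, and 4 of 15 with the median fold set to 0, beside 8.75%. Icam1, an adhesion molecule, was at 90.5, 381, 633 and 256 CPM in members and at 307, 479, 750.0 and 300.1 CPM in negative cells. Bcl2a1d, a survival gene of the Bcl2 family whose copies resemble each other closely, had log2 folds of -1.21, -0.60, -0.33 and -0.33, and the interval of its ratio reached 1 in library 4.

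Genes that mark neutrophils of tumours in the list used here were lower in every library for 9 of 25 tested members and higher for none, beside 17.5% and 4.21% of all tested genes. Without library 3 it was 17 of 25, beside 24.3%. Among them, Cstb (cystatin B) was at 736, 667, 1176 and 522 CPM in members and at 1221, 910.4, 1281 and 727 CPM in negative cells. Cxcr4 is not in that list but among the chemoattractant receptors. This receptor, which holds neutrophils in bone marrow and marks aged cells, was at 68.5, 228, 283 and 121 CPM against 171, 259.8, 352 and 156. Cd274, which encodes PD-L1 and is in the tumour neutrophil list, did not share a direction. Its levels were 302, 353, 333 and 115 CPM in members and 603, 441, 325 and 116 CPM in negative cells, with log2 folds of -0.98, -0.31, 0.03 and -0.01. The interval of the ratio lay below 1 in libraries 1 and 2 and held 1 in libraries 3 and 4. Among cells with no UMI of C1qa, C1qb, Cd3e, Epcam or Col1a1, the log2 fold in library 1 was -0.08. The share of cells with a Cd274 UMI was 43.2%, 39.9%, 42.4% and 16.7% in members and 49.2%, 40.0%, 36.6% and 14.5% in negative cells. At 1000 UMIs it was 29.4%, 25.3%, 24.4% and 10.5% against 41.6%, 28.0%, 25.4% and 10.0%, and the widest gap was in library 1, while T cells outside the gate gave 8.50%, 9.28%, 7.14% and 2.37%. Cd274 was lower in library 4 than elsewhere in both kinds of cell.

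The remaining lists are given by their counts, beside 4.21% of all tested genes higher and 17.5% lower in every library. Hypoxia and glycolysis genes were higher in every library for 1 of 19 (Slc2a3, a glucose transporter, with log2 folds of 1.07, 0.13, 0.30 and 0.54) and lower for 3. They were lower for 6 without library 2, beside 27.5% of all tested genes, and for 5 without library 3, beside 24.3%. Without library 4 they were higher for 3, beside 9.33%. Fc and pattern receptors were lower for 5 of 15 and NADPH oxidase subunits for 2 of 6. Transcription factors were higher for 1 and lower for 6 of 14. They were higher for 2 of 14 without library 1, beside 7% of all tested genes, and for 0 of 13 without library 4, beside 9.33%. Immediate-early genes were lower for 3 of 11, and for 5 without library 4, beside 23.3%. Chemoattractant receptors were higher for 1 and lower for 2 of 11. Without library 3 these counts were 2 and 5, beside 9.2% and 24.3%. Adhesion molecules were higher for 2 and lower for 2 of 10. Suppressive myeloid genes were higher for 1 and lower for 2 of 8, and higher for 2 without library 4, beside 9.33%. Other S100 genes were higher for 2 (S100a6 and S100a11) and lower for 1 of 5, and lower for 2 without library 1, beside 24.8%. No tested gene of the cell cycle (6), specific granule (8) or azurophil granule (1) lists had the same direction in every library. Cebpb, a transcription factor of emergency granulopoiesis, was at 2923, 4894, 3919 and 3367 CPM in members and at 3801, 5153, 3968 and 3299 CPM in negative cells.

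Levels were also set out by the amount of Retnlg at equal depth. The classes use the values that chose the members, and all the genes shown but Cxcr2 were chosen for their difference between members and negative cells, so these levels are a description and no separate support. Cells thinned to 1000 UMIs were split by their Retnlg UMIs into 3597 with 0, 600 with 1, 419 with 2 to 3 and 543 with 4 or more. Pooled over libraries, Mmp8 was at 127, 163, 246 and 411 CPM from the first to the last of these classes. The ratio of the last to the first was 3.23. The first and last classes stood at 78.2 and 397 CPM in library 1, 93.6 and 242 CPM in library 2, 170.4 and 506 CPM in library 3, and 144 and 419 CPM in library 4. Each library gave its highest Mmp8 level in the class with the most Retnlg, and all 4 libraries shared this order of the outer classes. With cells thinned to 500 UMIs, the order of the outer classes was the same in each library, but in library 2 the highest level was in the class with 1 Retnlg UMI, at 186 CPM, with 170 CPM at 4 or more. At 1000 UMIs, the class with 1 UMI in library 2, at 82.0 CPM, was not above the class with 0.

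Ccl6 was ordered the same way in every library, from 318 to 681 CPM in library 1, 813 to 1465 CPM in library 2, 602 to 1422 CPM in library 3 and 719.5 to 1601 CPM in library 4. At 500 UMIs the outer classes kept this order in each library, but the classes between did not in libraries 1 and 2. Mgst1 stood at 152, 230.0, 243 and 365 CPM in the pooled classes, with a dip to 149.5 CPM at 2 to 3 UMIs in library 4. At 500 UMIs its pooled classes stood at 165, 258, 262 and 272 CPM. Its level at 2 to 3 UMIs was then above that at 4 or more in library 2 (364 and 170 CPM) and library 4 (283 and 193 CPM). Clec4n went the other way, at 378, 283, 239 and 158 CPM pooled. Tnf was at 1240.2, 818, 943 and 678 CPM pooled, and every library had a lower level at 4 or more UMIs than at 0, though the classes between were in order in library 4 only. With cells thinned to 500 UMIs, the outer classes of Tnf kept this order in each library, but the classes between were in order in libraries 2 and 3 only. Cxcr2 stood at 693, 695, 735 and 595 CPM pooled, and at 4 or more UMIs it was below the level at 0 in each library, which did not hold in libraries 2, 3 and 4 when cells were thinned to 500 UMIs.

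**Figure D4:**
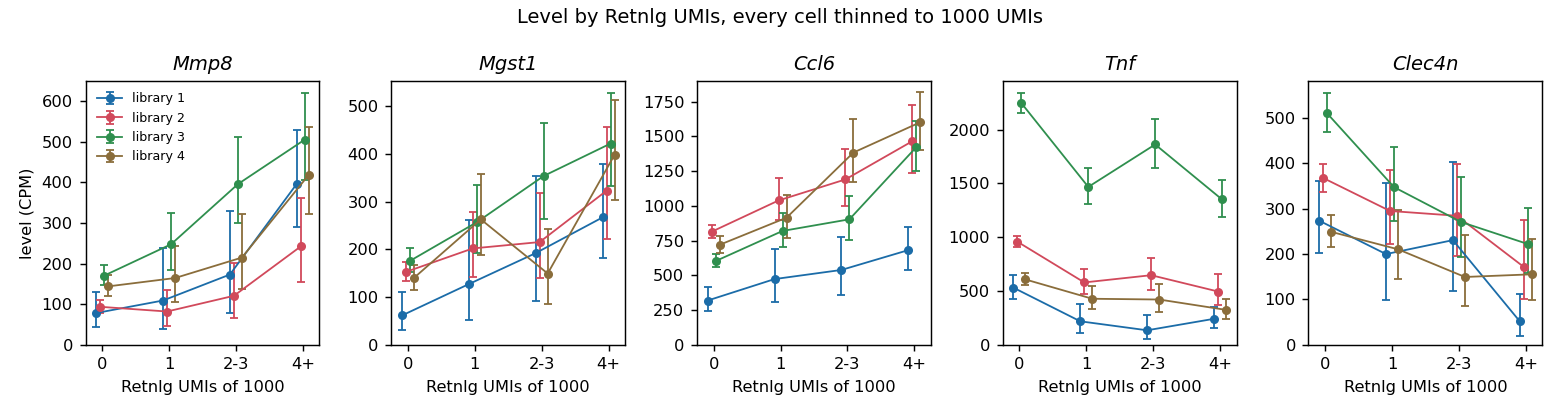
Level of 5 genes (vertical axes, CPM) in gated neutrophils split by Retnlg UMIs (horizontal axes, per 1000 UMIs of a thinned cell), with 1 line per library and exact 95% Poisson intervals. Mmp8, Mgst1 and Ccl6 are highest and Tnf and Clec4n lower at 4 or more Retnlg UMIs than at 0 in each library.

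Library 1 differed from the others in specific granule transcripts. There, 6 of 8 listed genes were at least 2-fold higher in members (2.59% of all tested genes were), whereas none was in libraries 2, 3 or 4. Without library 1 only 5 of the 8 passed the filter of 20 CPM, so the rest were tested because of their level there. The 10 CPM added to every level also left little room for 2-fold where levels were low. These counts are therefore a description and cannot decide whether the libraries differ. Ngp (neutrophilic granule protein) was at 1143 CPM in members and 2.85 CPM in negative cells of library 1, and Camp (cathelicidin) at 507 and 5.69 CPM. Ltf (lactoferrin) was at 115 CPM in members and had no UMI in negative cells, so it was at least 13.5-fold higher against the level of 3 UMIs in those cells. Lcn2 (lipocalin 2) was at 2242 and 452 CPM. At 1000 UMIs, Lcn2 was found in 60.9% of members and 32.5% of negative cells of library 1, but also in 14.4% of T cells and 42.0% of Epcam cells there, so its share in negative cells was below that of Epcam cells. In libraries 2 to 4, Ngp was at 2.53, 1.60 and 4.62 CPM in members and 6.05, 2.66 and 9.33 CPM in negative cells. Camp was at 6.32, 4.81 and 1.85 CPM in members and 17.8, 13.3 and 1.44 CPM in negative cells. Camp in library 4 rested on 2 UMIs in members. Lcn2 in libraries 2 to 4 was at 2949, 2744 and 1422 CPM in members and 3360, 1958 and 1198 CPM in negative cells, so it was higher in members of libraries 3 and 4 as well.

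Very few cells held these molecules. Of the 985 Ngp UMIs in the 266 members of library 1, 560 were in a single cell and 93.8% in 10 cells. Of the 437 Camp UMIs, 398 were in 1 cell, and of the 99 Ltf UMIs, 60 were. Any of the 3 transcripts was found in 34 members (12.8%, exact 95% interval 9.02% to 17.4%) and in 3 of 191 negative cells (1.57%, 0.325% to 4.52%). These 34 members had a median of 58 Retnlg UMIs and 4372 UMIs in all. In library 2 the corresponding shares were 7.10% of members and 6.71% of negative cells, in library 3 7.34% and 7.58%, and in library 4 1.86% and 2.47%. The intervals of members and negative cells were separate in library 1 and overlapped in the other libraries.

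**Figure D5:**
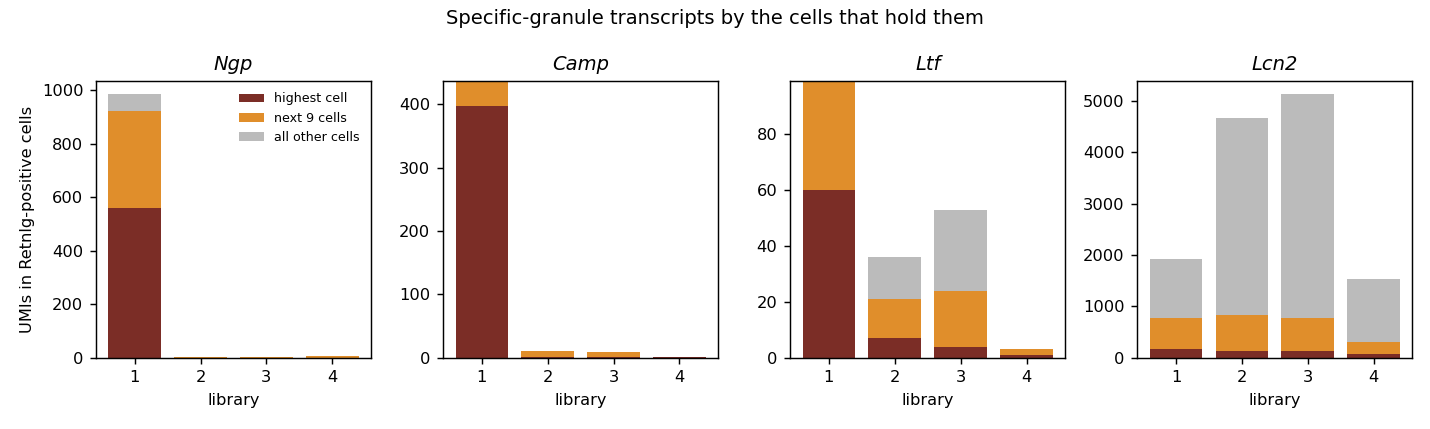
UMIs of 4 specific granule genes (vertical axes, each with its own scale) in Retnlg-positive cells of each library, divided into the cell with the most, the next 9 cells and all others. Nearly all Ngp and all Camp and Ltf UMIs of library 1 lie in 10 cells, whereas the 10 cells with most Lcn2 hold 40.0% of its UMIs there.

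Without every cell that held Ngp, Camp or Ltf, 232 members and 188 negative cells of library 1 remained. The log2 fold of Mmp8 there became 0.73, that of Ifitm6 1.86, Ly6g 1.18, Lcn2 1.63, Anxa1 1.19, Mgst1 1.05 and Clec4n -1.33. Mmp8 in library 1 then lay within the range of the other libraries (0.50, 0.89 and 0.71 after the same removal), while the number of genes at least 2-fold higher in library 1 was still 112.

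RNA of other cell types also differed between members and negative cells. In library 1 the 8 macrophage genes summed to 1863 CPM in members and 5636 CPM in negative cells, with Apoe the most abundant at 728 and 2177 CPM and C1qa at 398 and 1249 CPM. The 9 dendritic cell genes, mostly Cd74, summed to 4225.5 and 7727.5 CPM, with Flt3, Clec9a and Siglech at 0 in members. In libraries 2 to 4 they summed to 804, 849 and 816 CPM in members and 801, 957.5 and 812 CPM in negative cells. The 6 tumour or epithelial genes, led by Krt18, went the other way, at 2080.2 CPM in members and 950.3 CPM in negative cells of library 1. They were also higher in members of library 2, at 157 and 65.9 CPM, and were at 6.41 and 5.76 CPM in library 3 and 0.923 and 2.15 CPM in library 4. In libraries 2 to 4 the macrophage sums were 1005, 338 and 869.6 CPM in members and 959.7, 346 and 951 CPM in negative cells. Fibroblast genes, led by Col3a1, summed to 116 and 213 CPM in library 1, 10468 and 7027 CPM in library 2, 2106 and 1998 CPM in library 3, and 1107 and 1768 CPM in library 4.

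Other lists were small or uneven. T cell genes summed to 73.1, 52.5, 64.1 and 38.8 CPM in members of libraries 1 to 4 and to 22.8, 59.3, 62.5 and 33.0 CPM in negative cells. The only one of them tested, Cd3d, was higher in members of every library, with log2 folds of 1.03, 0.21, 0.40 and 0.27, and the interval of its ratio held 1 in each. Monocyte genes summed to 102, 166, 126 and 268 CPM in members and 182, 151, 143 and 346 CPM in negative cells. Eosinophil genes were at 1.16, 5.06, 9.08 and 2.77 CPM in members, with Epx and Prg2 at 0, and at 5.69, 7.56, 7.54 and 15.1 CPM in negative cells. Endothelial genes were at 8.13, 35.4, 12.3 and 12.9 CPM in members and 25.6, 56.9, 13.7 and 16.5 CPM in negative cells. Erythroid and platelet genes, led by Pf4, were at 23.2, 586, 879.6 and 1398 CPM in members and 68.3, 865, 611 and 1633 CPM in negative cells. Their part in the comparisons was not tested, apart from the removal of cells described below. Some genes stood out in single libraries. Gzma, a granule enzyme of killer cells, was at 113 CPM in members and 2.66 CPM in negative cells of library 3. In library 4 the 5 basophil or mast cell genes summed to 253 CPM in members and 7.18 CPM in negative cells. In libraries 1 to 3 they summed to 2.32, 1.26 and 1.60 CPM in members and 2.85, 5.44 and 10.6 CPM in negative cells. Mcpt8, a basophil protease, was at 181 CPM in members of library 4 with no UMI in the negative cells. Cpa3 was at 36.9 CPM and Ms4a2 at 18.5 CPM in those members.

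Members without such RNA were compared as well. After cells with any UMI of C1qa, C1qb, Cd3e, Epcam or Col1a1 were left out, 87, 205, 493 and 386 members and 74, 593, 729 and 500 negative cells remained in libraries 1 to 4. The log2 fold of Mmp8 was 1.19, 0.54, 0.78 and 0.84, that of Ccl6 1.58, 0.62, 0.78 and 0.71, that of Tnf -1.27, -0.38, -0.55 and -0.62 and that of Clec4n -1.36, -0.56, -0.42 and -0.46. Their directions in every library were therefore also found in cells with no UMI of those markers.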

How the data were processed

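The authors prepared droplet libraries (10x Genomics) from sorted CD45 cells of 4T1 tumours and deposited 1 matrix of UMI counts per gene and barcode. The submitters' processing notes name Cell Ranger 2.1.1 and build mm10, and the matrix header gives software version 6.1.2. The aligner settings were not used here. Barcode suffixes are numbered 1 to 4, no label ties them to samples, and the matrix was therefore treated as 1 pooled sample with 4 libraries of unknown treatment. The libraries were not used as replicates, and no test was run.

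Barcodes with at least 300 genes and at most 15% mitochondrial UMIs were kept (97.2%). UMIs were summed per library over Retnlg-positive and Retnlg-negative gated cells and scaled to CPM. Genes with a mean of at least 20 CPM were compared as log2(CPM + 10), and a gene was called past 2-fold. Equal-depth values used cells thinned to 1000 UMIs. Intervals at 95% were exact (Clopper-Pearson for shares, Poisson for CPM, conditional binomial for ratios), and a count of 0 was read against 3 UMIs. The comparison was tested on simulated data with planted changes above 2-fold and counting noise only. That test did not cover smaller changes or molecules concentrated in few cells. Doublets were kept. Scrublet (scanpy 1.11.5) called 216, 1, 0 and 154 cells in libraries 1 to 4, too few in libraries 2 and 3 for its calls to be used, and an alternative removed the highest 5% of scores per library.

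Named genes were to be those past 2-fold in every library, the list members with most UMIs, and Cd274 and Retn. None passed the first rule, and the 12 per direction were chosen afterwards. The members and gene lists were chosen with earlier results of these data known. Promoter windows came from RefSeq (GRCm38.p6). Python 3.11.15, numpy 2.4.6, scipy 1.17.1, pandas 2.3.3 and matplotlib 3.10.9 were used. Alternatives changed the gate, the depth, the scale, the filters and the libraries included.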

Additional observations from a re-analysis of the deposited data

Results flagged for a closer look

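The barcodes that the filter removed still held Retnlg. Of 931 removed barcodes, 24 had a Retnlg UMI, with 41 UMIs in all, and 4 of the 24 met the other conditions of the neutrophil gate. This was flagged because the signal lay in data that the comparisons did not use.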

How the results depend on the processing

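The pooled share of gated cells with Retnlg was 37.7%. It was 39.6% with S100a8 and S100a9 at 2% or more, 35.0% with no condition on Csf3r, 29.4% with at least 2 Retnlg UMIs and 30.1% when cells were thinned to 1000 UMIs before the gate. Leaving out 1 library gave 35.8% (without library 1) to 43.7% (without library 2). The share at equal depth was 30.3% at 1000 UMIs and 22.5% at 500 UMIs. The cause of these shifts was not tested, except that thinning lowers the chance of detecting a UMI by construction. No gene was at least 2-fold higher or lower in every library under any of the 20 alternatives. Over those alternatives the median log2 fold of the libraries stayed at 0.64 to 0.99 for Mmp8, 0.69 to 0.99 for Mgst1, 0.45 to 0.75 for Ccl6, -0.69 to -0.45 for Tnf and -0.70 to -0.49 for Clec4n. The removal of cells with Ngp, Camp or Ltf was added after the data were seen. Low counts limit the small genes, and library 1 rests on 266 and 191 cells. Members and negative cells were compared inside each library, and no test was run over the 4 libraries. Of the treatment groups, no paired analysis was possible because their replicate numbers could not be tied to libraries.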

Other observations

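A few more genes differed widely in single libraries. Hist1h2ap, a histone gene, was at 34.8, 3.79, 6.95 and 36.0 CPM in members of libraries 1 to 4 and at 296, 3.33, 3.99 and 13.6 CPM in negative cells, so it was lower in members of library 1 and higher in members of library 4. Wfdc17, a small secreted protein of activated myeloid cells from the suppressive myeloid list, was at 10592, 3276, 1016 and 2366 CPM in members and at 3047, 2795, 1003 and 1998 CPM in negative cells. Ctsg, a serine protease of the azurophil granule list, was at 72.0 CPM in members of library 4 and had no UMI in the negative cells. The basophil or mast cell genes given above were also higher in members of that library.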
